A study of Mus musculus with 6 samples.

Results

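The IL1 axis and NF-kB genes described here are 10 genes chosen by name among the 27179 genes of the count table: the cytokine Il33, the receptors Il1r1, Il1rl1 and Tnfrsf1a, the NF-kB subunit genes Nfkb1, Nfkb2 and Relb, and the feedback genes Nfkbia, Nfkbiz and Tnfaip3. All 10 were found and all 10 passed the filter on low counts. Their expression was measured by bulk RNA sequencing in cancer-associated fibroblasts (CAFs) from 3 mammary tumors of raGFP-Wnt1 mice, and the comparison asked how CD34 negative (CD34-) CAFs differed from CD34 positive (CD34+) CAFs. Every tumor carried the MMTV-Wnt1 transgene, in which a mouse mammary tumor virus promoter drives Wnt1 in the mammary epithelium (FVB/NJ background), and was heterozygous for the Pdgfra H2B-GFP reporter, which puts green fluorescent protein in the nuclei of cells with an active Pdgfra gene (C57BL/6 background). GFP-positive cells of each tumor were sorted by the surface protein CD34 into both fractions, with no treatment, which gave 3 libraries per group. The age of these mice, and whether each tumor came from its own mouse, were not stated in the sources used here, and the GFP gate limits both groups to fibroblasts that use Pdgfra.

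IL33 is stored in the nuclei of stromal and barrier cells and acts, when released, on the receptor ST2, the product of Il1rl1, whereas IL1 alpha and IL1 beta act on the product of Il1r1. Both receptors, and by another route the TNF receptor encoded by Tnfrsf1a, lead to the IkB kinase, which frees NF-kB dimers from their IkB inhibitors. RELA with p50 (from Nfkb1) forms the classical dimer and RELB with p52 (from Nfkb2) the alternative one, and NF-kB itself induces inhibitors such as Nfkbia and Tnfaip3. In CAFs this pathway is known for driving the secreted chemokines and cytokines of inflammatory fibroblasts.

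Library totals lay between 16238059 and 86609267 counts, and the CD34- library of tumor 3 stood apart with counts for 14314 genes, against 16253 to 19220 in the others. As for the labelled cell type, 10 fibroblast genes, Pdgfra among them, summed to 68505 to 94702 CPM (counts scaled to library size) in CD34- and 77984 to 94944 CPM in CD34+ CAFs. CPM of single genes are scaled here by library size and TMM factor, and a log2 fold change is CD34- over CD34+, so that a negative value means lower in CD34- CAFs. The median log2 fold change over all tested genes was -0.03. Libraries are named by fraction and tumor, and groups of values are given for tumors 1, 2 and 3 in that order.

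Per length, the 10 genes spanned a wide range of levels. Nfkbia was the most abundant at 301 ± 71.4 RPKM (CPM per kilobase of gene length, SD over 6 libraries), followed by Nfkbiz at 169 ± 37.4 RPKM and Il33 at 163 ± 94.4 RPKM. Tnfaip3 stood at 113 ± 23.7 RPKM and Tnfrsf1a at 101 ± 14.8 RPKM. Below these came Il1r1 at 39.4 ± 18.4 RPKM, Nfkb1 at 33.4 ± 3.86 RPKM, Nfkb2 at 23.9 ± 4.97 RPKM, Il1rl1 at 16.9 ± 12.04 RPKM and Relb at 14.4 ± 3.42 RPKM. Only the steps from Nfkbia to Nfkbiz, from Tnfrsf1a to Il1r1 and from Nfkb1 to Nfkb2 were in the same direction in all 6 libraries, so the other neighbours in this order were not separated beyond their spread. The lowest count of any of the 10 genes in any library was 375, for Relb in the CD34+ library of tumor 1.

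NF-kB binds the kB motif, and the promoters of several of these genes hold it close to the start. Windows from 250 bases before to 50 bases after the annotated start were available for 7 of the 10 genes (RefSeq, build GRCm38.p6), with no entry for Nfkb1, Relb and Nfkbiz. The kB consensus, 10 bases long and searched on both strands, was present in 8.46% of all 32851 windows of this length, and in 9.55% of 27025 genes. Of the 13 windows of the 7 genes, 6 held it, in Nfkb2, Nfkbia, Tnfaip3 and Il1r1. The 150 bases before the start of 3 of these, and of Il1rl1, in whose windows no match was found, are shown 5′ to 3′ on the gene's own strand, with the kB matches in capitals:
Nfkbia, chr12:55492648-55492797, minus strand: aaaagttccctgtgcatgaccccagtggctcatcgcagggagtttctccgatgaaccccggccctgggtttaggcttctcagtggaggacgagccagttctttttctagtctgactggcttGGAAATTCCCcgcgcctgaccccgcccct
Tnfaip3, chr10:19015411-19015560, minus strand: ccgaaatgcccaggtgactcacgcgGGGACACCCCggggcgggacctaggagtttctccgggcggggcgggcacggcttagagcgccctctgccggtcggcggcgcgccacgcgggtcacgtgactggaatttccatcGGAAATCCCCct
Nfkb2, chr19:46304587-46304736, plus strand: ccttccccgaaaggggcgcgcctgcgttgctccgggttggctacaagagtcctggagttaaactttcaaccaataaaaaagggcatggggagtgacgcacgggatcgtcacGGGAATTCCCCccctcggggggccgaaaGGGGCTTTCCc
Il1rl1, chr1:40439479-40439628, plus strand: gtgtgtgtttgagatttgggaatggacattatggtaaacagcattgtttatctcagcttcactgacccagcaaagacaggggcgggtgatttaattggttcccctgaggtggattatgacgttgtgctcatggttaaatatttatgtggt

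The bases shown for Il1rl1 and Nfkb2 lie inside the spans given below for these genes, so they precede alternative starts. Counted from the start that the bases shown precede, the match of Nfkbia began at position -29 and those of Tnfaip3 at positions -125 and -12. In the Nfkb2 window shown, a pair of overlapping matches began at positions -39 and -38, and another at position -11. Other windows of Nfkb2, not shown, held matches at positions 11, -236 and -225, each counted from its own start. A match is a run of letters and was not tested as a binding site. The 3 genes with matches close to the start did not share a direction between the fractions: the log2 fold change was 0.38 for Nfkb2, -0.38 for Nfkbia and 0.01 for Tnfaip3, whose sign turned with the fit. None of these passed in the main fit, which has no term for the tumor.

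Between the fractions, the IL1 receptor genes Il1rl1 and Il1r1 were lower in CD34- CAFs within every tumor, whereas the order of the fractions turned between tumors for Il33 and Tnfrsf1a. In the test without a term for the tumor, 0 of the 10 genes passed an adjusted p of 0.05, as did only 0.121% of the 14855 genes tested (limma-voom). By unadjusted p under 0.05 it was 3 of the 10, against 14.3% of all genes, and edgeR called 0 (background 0.0606%) and DESeq2 1 (background 4.7%) of the 10. Since both fractions of a pair came from 1 tumor, a second fit took the tumor as a block, and there 2 of the 10 passed, both lower in CD34- CAFs, Il1rl1 and Il1r1. That blocked fit called 8.57% of all tested genes, 4.32% as higher and 4.25% as lower. With the block, edgeR called 1 of the 10 (background 3.87%), DESeq2 3 (11.7%) and limma-voom with sample quality weights 5 (19.5%). Left without tumor 1, 2 or 3, the blocked fit called 3, 1 and 4 of the 10, against 7.61%, 5.82% and 13% of all genes tested. The direction was lower in CD34- CAFs in every tumor for 5 genes, namely Il1r1, Il1rl1, Nfkb1, Nfkbia and Nfkbiz, and only Relb was higher in every tumor (background 23.4% and 22.8% of all tested genes).

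**Figure D1:**
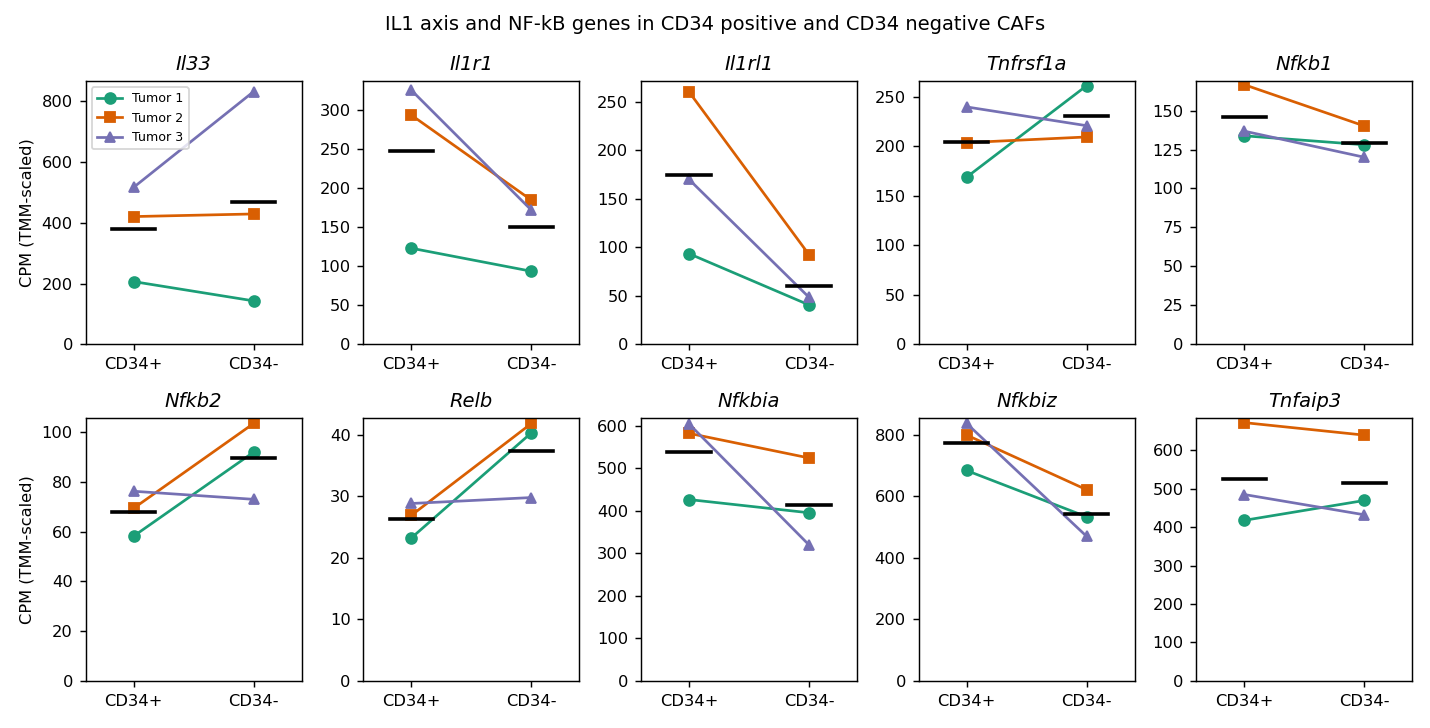
CPM (TMM-scaled, axes from 0) of the 10 genes in CD34+ and CD34- CAFs, with a line joining the libraries of each tumor and a black bar at the mean of 3. Il1r1, Il1rl1, Nfkb1, Nfkbia and Nfkbiz slope down in all 3 tumors, Relb slopes up, and the tumors are far apart for Il33.

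Il33 (chromosome 19, 29925113 to 29960718, GRCm38) was expressed in both fractions, and its level followed the tumor rather than the fraction. It stood at 143, 429 and 833 CPM in CD34- and at 206, 421 and 517 CPM in CD34+ CAFs. Tumor 1 was the lowest in both fractions and tumor 3 the highest, and the groups overlapped. The 10 epithelial marker genes ran the other way, with sums of 198, 174 and 69.8 CPM in CD34- and 176, 111 and 22.2 CPM in CD34+ CAFs. Averaged over its fractions, tumor 3 exceeded tumor 1 by 3.82-fold, a difference of 1.93 on the log2 scale. Between fractions, the log2 fold change of Il33 was 0.13 ± 0.60 (SE, n = 3 per group, adjusted p = 0.946). Within the tumors the log2 ratio was -0.53, 0.03 and 0.69, so the sign changed from tumor to tumor. With the tumor as a block the 95% interval ran from -0.38 to 0.53, and without the CD34- library of tumor 3 the log2 fold change was -0.45. Over the 6 libraries the genes with the most similar pattern were Snap23 (Pearson r = 0.986), Tiam1 (0.986) and Prps1l3 (0.980). These are the highest r of 8944 genes over few libraries, paired within tumors, and only describe the pattern.

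Il1rl1 (chromosome 1, 40404864 to 40465418), which encodes the IL33 receptor ST2, had the largest difference of the 10 genes. It stood at 40.5, 92.3 and 48.3 CPM in CD34- and at 93.5, 261 and 170.2 CPM in CD34+ CAFs. Each CD34+ library was above all CD34- libraries, though the margin between the CD34- library of tumor 2 and the CD34+ library of tumor 1 was small; groups did not overlap for 20.4% of all tested genes, 10.4% with CD34- higher and 10% with CD34- lower. The mean was 60.4 ± 27.9 against 175 ± 83.6 CPM (SD, n = 3). The log2 fold change was -1.48 ± 0.41 (SE, adjusted p = 0.169) without and -1.52 ± 0.15 (adjusted p = 0.000767) with the tumor as a block. Within tumors 1, 2 and 3 the log2 ratio was -1.21, -1.50 and -1.82. It passed in the blocked fit without each tumor in turn, and without tumor 3, whose CD34- library stood apart, the log2 fold change was -1.38 (adjusted p = 0.000229). With the block, edgeR gave an adjusted p of 0.0119, and DESeq2 called the gene also without the block (adjusted p = 0.00871). In bulk RNA, fewer cells that express a gene and less RNA of it per cell cannot be told apart.

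Il1r1 (chromosome 1, 40222480 to 40316201), the signalling receptor for IL1 alpha and IL1 beta, was lower in CD34- CAFs by a smaller step. Its levels were 93.4, 185 and 172 CPM in CD34- and 123, 294 and 325 CPM in CD34+ CAFs. The CD34+ library of tumor 1 lay below the CD34- libraries of tumors 2 and 3, so the groups overlapped, and the difference showed only within tumors. Il1r1 had a log2 fold change of -0.62 ± 0.41 (SE, n = 3 per group, adjusted p = 0.522) without and -0.67 ± 0.14 (adjusted p = 0.0183) with the block. The within-tumor log2 ratios were -0.40, -0.67 and -0.92. The blocked call was lost without tumor 2 (log2 fold change -0.68, adjusted p = 0.0638) and in edgeR with the block (adjusted p = 0.0660), whereas DESeq2 with the block made it (adjusted p = 0.00102). The tumors themselves differed by up to 2.21-fold in Il1r1. Its closest patterns over the 6 libraries, picked as the highest r of 8944 genes, were those of Bms1 (r = 0.999), Ifitm3 (0.994) and Ptgr1 (0.990).

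Several other cell types carry ST2 or IL1R1, so their markers were read in the same libraries. Of 12 mast cell and ILC2 genes, Cma1 and Tpsb2 had no count in any library and 9 were under 5 CPM in all. The list summed to 38.8 to 46.5 CPM in CD34- and 26.2 to 43.9 CPM in CD34+ CAFs, most of it from Rora, which is not limited to these cells. The mast cell genes Cpa3, Mcpt4 and Ms4a2 were at 0.140 CPM or less in every library. The part of mast cells and ILC2 in the receptor differences was not tested. Of 12 leukocyte genes, 8 were under 5 CPM in every library, with sums of 23.2 to 27.4 and 15.5 to 24.8 CPM. The endothelial list was higher in CD34+ CAFs, at 59.3 to 124 against 17.3 to 41.6 CPM, and thus moved with Il1rl1 and Il1r1. Most of the CD34+ sum was Tek, at 48.8 to 115.6 CPM in CD34+ and 5.45 to 13.4 CPM in CD34- CAFs, whereas 6 of its 10 genes had a higher mean in CD34- CAFs and the defining marker Cdh5 was at 4.20 CPM or less in every library. The part of endothelial RNA in the receptor differences was not tested.

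Tnfrsf1a (chromosome 6, 125349723 to 125362483), which encodes the main TNF receptor of fibroblasts, showed no difference that passed. It stood at 261, 209 and 221 CPM in CD34- and at 169, 204 and 239.8 CPM in CD34+ CAFs, and the groups overlapped. Its log2 fold change was 0.18 ± 0.19 (SE, n = 3 per group, adjusted p = 0.704), with a blocked 95% interval of -0.18 to 0.54. Its within-tumor log2 ratios of 0.63, 0.04 and -0.12 rest on tumor 1. It was also the gene that of the 10 that differed least between tumors, by 1.11-fold.

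**Figure D2:**
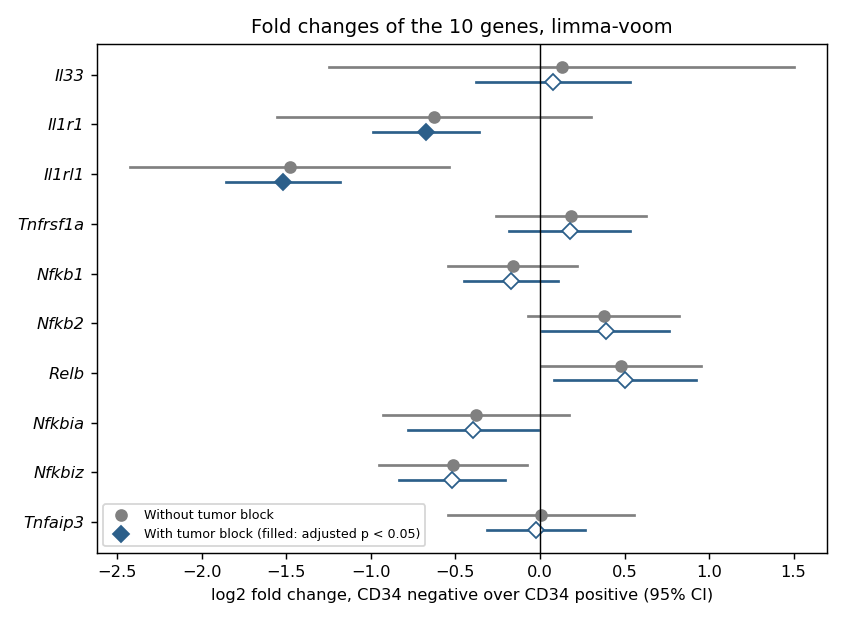
Log2 fold changes (CD34- over CD34+) of the 10 genes with 95% confidence intervals, in limma-voom without (grey circles) and with (blue diamonds) the tumor as a block. Filled diamonds mark Il1r1 and Il1rl1, with adjusted p of 0.0183 and 0.000767; the block narrows the intervals of Il33, Il1r1 and Il1rl1 most.

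Among the NF-kB subunits, the genes of the alternative dimer were higher in the CD34- library of tumors 1 and 2 and level in tumor 3. Neither passed limma-voom without or with the block. Sample quality weights with the block called both (adjusted p = 0.00523 for Relb and 0.00602 for Nfkb2), as 19.5% of all tested genes. Relb (chromosome 7, 19606217 to 19629438) stood at 40.3, 41.8 and 29.8 CPM in CD34- and at 23.2, 26.9 and 28.8 CPM in CD34+ CAFs. The groups did not overlap, but in tumor 3 the libraries were nearly level, with log2 ratios of 0.79, 0.64 and 0.05. Its log2 fold change was 0.48 ± 0.21 (SE, n = 3 per group, adjusted p = 0.342), and 0.50 ± 0.19 (adjusted p = 0.143) with the block. Without tumor 3 the blocked value was 0.68 (adjusted p = 0.0179).

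Nfkb2 (chromosome 19, 46300994 to 46312400) encodes the precursor of p52, the partner of RELB. It stood at 91.9, 103 and 72.9 CPM in CD34- and at 58.1, 69.3 and 76.2 CPM in CD34+ CAFs, with overlap because tumor 3 did not share the direction. Its log2 fold change was 0.38 ± 0.20 (SE, n = 3 per group, adjusted p = 0.426) without the block. The blocked value was 0.39 ± 0.17 (adjusted p = 0.199). Its blocked confidence interval, from 0.014 to 0.765, lay on the positive side, but the gene did not pass after adjustment. The within-tumor log2 ratios were 0.66, 0.58 and -0.06. Without tumor 3 the blocked value was 0.60 (adjusted p = 0.0166). Over the 6 libraries the log2 levels of Nfkb2 and Relb were correlated at r = 0.980, a description over libraries that share tumors. The exons of Nfkb2 share 299 bases with Psd on the other strand, a gene with 5983 counts in all libraries together, and 531 bases with a noncoding transcript; the library kit does not mark strand, so reads there cannot be assigned to either gene.

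Nfkb1 (chromosome 3, 135584655 to 135691969), the source of p50, was nearly level. It stood at 128, 140.1 and 120.0 CPM in CD34- and at 134, 167 and 137 CPM in CD34+ CAFs. The CD34- library was the lower of each pair, and the groups overlapped. Nfkb1 had a log2 fold change of -0.16 ± 0.17 (SE, n = 3 per group, adjusted p = 0.696), with a blocked 95% interval of -0.45 to 0.11. Rela, which encodes the transactivating partner of p50, stood at 143, 105 and 119 against 101, 75.9 and 88.9 CPM. Its groups did not overlap and its within-tumor log2 ratios were close together at 0.49, 0.47 and 0.43, but its adjusted p was 0.318 without and 0.0525 with the block. Rel, a further subunit gene, was low and overlapping, at 14.3 to 18.4 CPM in CD34- and 14.2 to 23.1 CPM in CD34+ CAFs.

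The feedback genes did not move as 1 group. Nfkbiz (chromosome 16, 55811375 to 55838954), which encodes the nuclear protein IkB zeta needed for induction of a subset of NF-kB genes including Il6, was the feedback gene with the clearest separation. It stood at 533, 621 and 469 CPM in CD34- and at 683, 799 and 836 CPM in CD34+ CAFs, with no overlap. The log2 fold change was -0.51 ± 0.19 (SE, n = 3 per group, adjusted p = 0.287). With the block it was -0.52 ± 0.14 (adjusted p = 0.0517), just short of the threshold. DESeq2 with the block (adjusted p = 0.0116) and sample quality weights with the block (adjusted p = 0.0191) called it. The within-tumor log2 ratio was -0.36 in tumors 1 and 2 and -0.83 in tumor 3, and without tumor 3 the blocked value was -0.38 (adjusted p = 0.0836).

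Nfkbia (chromosome 12, 55489409 to 55492647) encodes IkB alpha, the inhibitor that holds NF-kB in the cytoplasm and that NF-kB itself induces. It stood at 396, 524 and 319.7 CPM in CD34- and at 427, 582 and 605 CPM in CD34+ CAFs. The CD34- library was the lower of each pair, by little in tumors 1 and 2 and most in tumor 3, and the groups overlapped. Its log2 fold change was -0.38 ± 0.24 (SE, n = 3 per group, adjusted p = 0.514) without the block, and -0.19 when the CD34- library of tumor 3 was also left out. The blocked value over all tumors was -0.39 ± 0.17 (adjusted p = 0.202). Its blocked confidence interval, from -0.778 to -0.011, lay on the negative side, but the gene did not pass after adjustment. The closest patterns over the 6 libraries, picked as the highest r of 8944 genes, were those of Itga5 (r = 0.999), Rnf6 (0.999) and G6pdx (0.997).

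Tnfaip3 (chromosome 10, 19000910 to 19015410), which encodes the ubiquitin-editing inhibitor A20, had the same mean in both fractions within its spread. It stood at 469.6, 639.5 and 432 CPM in CD34- and at 418, 672 and 485 CPM in CD34+ CAFs, or 514 ± 111 against 525 ± 132 CPM (SD, n = 3). The log2 fold change was 0.01 ± 0.24 (SE, adjusted p = 0.995), and the blocked 95% interval ran from -0.31 to 0.26. In both fractions tumor 2 was the highest.

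The rest of the pathway was read from 98 genes in 4 lists, of which 86 passed the filter on low counts. Without the block 0 of them passed limma-voom (background 0.121%), and 16 had an unadjusted p under 0.05 (background 14.3%). Also without the block, edgeR called 0 (background 0.0606%) and DESeq2 6 (background 4.7%). With the block 14 passed, 5 higher and 9 lower in CD34- CAFs, and edgeR with the block called 8 (background 3.87%). The 14 blocked calls fell on 0 of 10 tested IL1 family genes, 1 of 27 adaptors and kinases, 3 of 21 subunit and feedback genes and 10 of 28 NF-kB targets, beside 8.57% of all tested genes. Differences between the lists were not tested.

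**Figure D3:**
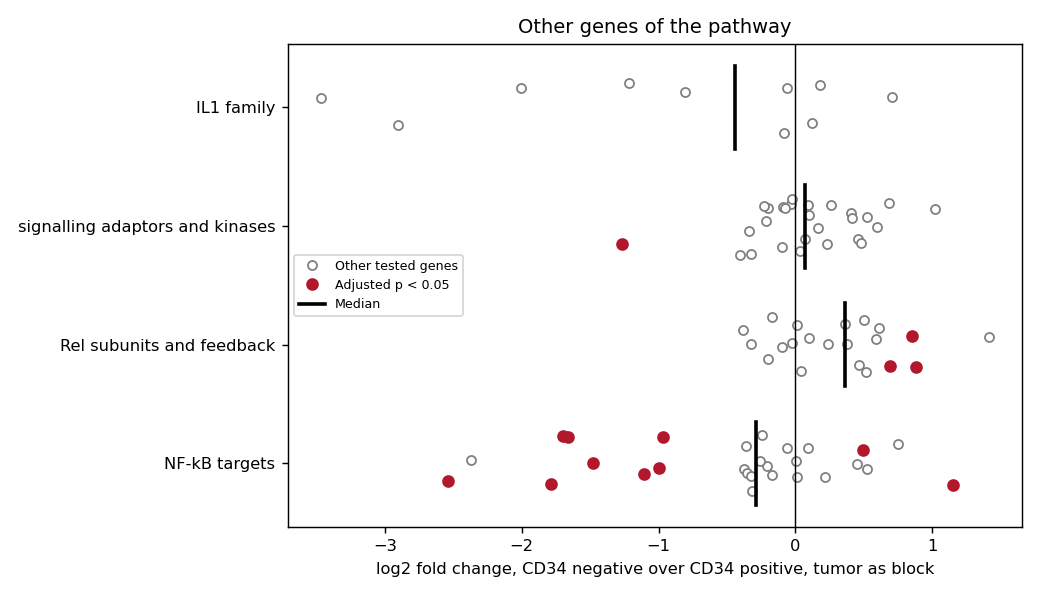
Log2 fold changes (CD34- over CD34+, tumor as a block) of the tested genes of 4 pathway lists, without the 10 genes above, with vertical position within a list spread only for display. Red points passed an adjusted p of 0.05, 0 in the IL1 family, 1 adaptor, 3 feedback genes and 10 targets; black bars are medians.

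Of the ligands of the IL1 family, Il33 was the only abundant one, and Il1a and Il1b were at or near 0 in both fractions. Il1a was at 0.421 CPM or less and Il1b at 0.427 CPM or less in every library, and the receptor antagonist Il1rn at 1.15 CPM or less. The IL36 ligands Il36a, Il36b and Il36g had no count in any library, which allows up to 3 counts in each. Il1rap, the coreceptor that both ST2 and IL1R1 need for signalling, stood at 20.9, 46.1 and 41.9 CPM in CD34- and at 16.2, 38.9 and 46.5 CPM in CD34+ CAFs, with overlap and with the order of the fractions turning in tumor 3. Il18, a cytokine of the family named after its values were seen, stood at 1.19, 1.64 and 1.57 CPM in CD34- and at 2.66, 3.29 and 13.4 CPM in CD34+ CAFs. Its groups did not overlap, and DESeq2 called it without and with the block (adjusted p = 0.0432 and 0.0331), whereas limma-voom (0.370 and 0.0686) and edgeR with the block (0.180) did not. Of 19 listed IL1 family genes 10 were tested, and with the block 0 passed limma-voom (background 8.57%) or edgeR (background 3.87%). DESeq2 with the block called 1 (background 11.7%), and quality weights with the block 3 (background 19.5%). The median log2 fold change of the 10 was -0.48, against -0.03 over all genes.

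On chromosome 1, 6 receptor genes of the family lie side by side, and the 5 that could be tested shared a sign. Within 467.0 kb of chromosome 1 (40084692 to 40551707) RefSeq places 8 genes, and the 6 protein-coding ones are all receptors: Il1r2, Il1r1, Il1rl2, Il1rl1, Il18r1 and Il18rap. This grouping was made after the values were seen. Of the 5 tested, 5 were lower in CD34- CAFs in every tumor, as were 23.4% of all tested genes. The coreceptor gene Il1rap lies on chromosome 16, outside this span. Its log2 ratios of 0.37, 0.24 and -0.15 did not share that direction. Il1r2, the decoy receptor that binds IL1 without signalling, stood at 1.21, 3.39 and 0.193 CPM in CD34- and at 2.23, 19.0 and 56.5 CPM in CD34+ CAFs. The CD34+ libraries of tumors 2 and 3 were far above the rest, and that of tumor 1 was not. Its log2 fold change was -4.09 (adjusted p = 0.353), and -3.46 ± 0.95 (SE, adjusted p = 0.0555) with the block. Without tumor 3 the blocked value was -2.21 (adjusted p = 0.00259). Il1rl2, the IL36 receptor, stood at 29.0, 32.8 and 37.4 against 29.4, 46.7 and 109.8 CPM, a difference that came from tumors 2 and 3 (adjusted p = 0.0867 with the block). Il18r1 was at 1.36 CPM or less throughout, and Il18rap was too low to test.

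**Figure D4:**
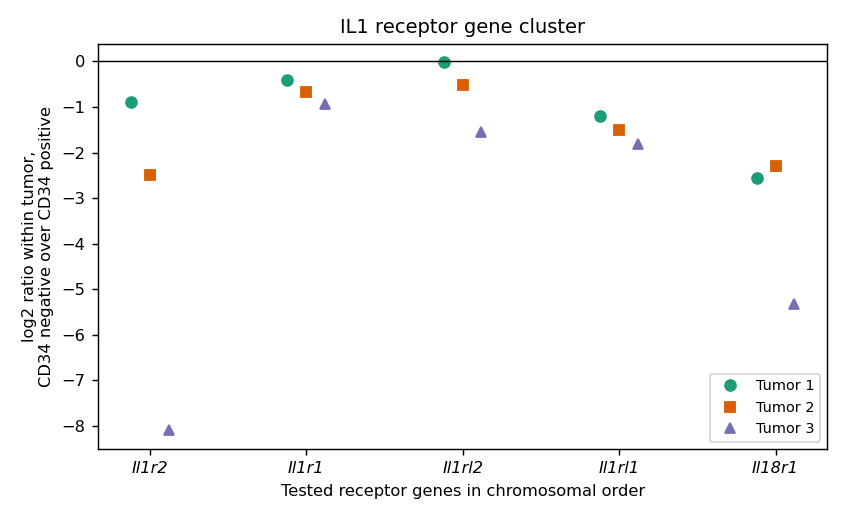
Log2 ratio of CD34- over CD34+ within each tumor (voom log2 CPM) for the 5 tested receptor genes of the chromosome 1 cluster, in chromosomal order. Every point is below 0; Il1r2 and Il18r1 rest on few counts, and Il18r1 had no count in the CD34- library of tumor 3.

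Among 27 adaptors and kinases, all tested, 1 passed with the block, against 8.57% of all tested genes. This was Irak3, the kinase-dead member of the IRAK family that damps signalling from IL1 and Toll-like receptors. It stood at 30.4, 26.7 and 41.0 CPM in CD34- and at 55.1, 65.6 and 119.6 CPM in CD34+ CAFs. The groups did not overlap, and the log2 fold change was -1.27 ± 0.17 (SE, adjusted p = 0.00281) with and -1.27 ± 0.31 (adjusted p = 0.131) without the block. Irak3 shares 192 exonic bases with Tmbim4 on the other strand (7553 counts in all). Among those that did not pass, the kinase gene Irak2 had a log2 fold change of 1.02 with the block (adjusted p = 0.0772), without overlap of its groups. The kinase subunit gene Ikbkg had a log2 fold change of 0.60 with the block (adjusted p = 0.0520). Of the list, 15 genes had a positive and 12 a negative log2 fold change, with a median of 0.06.

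In the list of Rel subunits and feedback genes, 21 of 22 were tested and 3 passed with the block, all higher in CD34- CAFs. Of all tested genes, 8.57% passed with the block, 4.32% as higher. Nfkbie, which encodes the inhibitor IkB epsilon, stood at 32.9, 43.4 and 34.7 CPM in CD34- and at 15.7, 24.0 and 20.04 CPM in CD34+ CAFs. Its groups did not overlap, and it rose by 0.88 ± 0.17 on the log2 scale (SE, adjusted p = 0.0146, against 0.169 without the block). Zc3h12a, the ribonuclease Regnase-1 that degrades inflammatory mRNAs such as Il6, rose by 0.85 (adjusted p = 0.0147), and Pdlim2, which promotes the breakdown of nuclear RELA, by 0.69 (adjusted p = 0.0346). All 3 of these calls were lost without tumor 2, where the adjusted p was 0.137, 0.276 and 0.0570. Of the list, 15 genes had a positive and 6 a negative log2 fold change, with a median of 0.38. Marker lists of other cells also differed in level. The 7 pericyte genes summed to 211 to 236 CPM in CD34- and 86.9 to 188 CPM in CD34+ CAFs. With the block 3 of them rose (Notch3, Cspg4 and Mcam) and 2 fell (Kcnj8 and Abcc9), against 4.32% and 4.25% of all tested genes. The 10 epithelial genes, of which 0 passed with the block, summed to 69.8 to 198 against 22.2 to 176 CPM, with overlap. No gene of either list was at 0 in all libraries. The part of these cells in the higher feedback genes was not tested. The inhibitor Nfkbib stood at 14.4 to 19.3 CPM in CD34- and 9.04 to 14.8 CPM in CD34+ CAFs, and Bcl3, a coactivator of p50 and p52 dimers, at 29.2 to 60.7 and 32.7 to 45.9 CPM, both with overlap.

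NF-kB target genes were measured as 30 listed genes, of which 28 were tested. Without the block 0 passed limma-voom (background 0.121%). With the block 8 fell and 2 rose in limma-voom, against 4.25% and 4.32% of all tested genes. With the block, edgeR called 5 of these 10 (Cxcl1, Cxcl2, Ccl2, Ccl7 and Steap4), against 3.87% of all tested genes. It did not call Saa3, Cxcl5, Il6, Mmp13 and Gadd45b, whose adjusted p there was 0.104, 0.0603, 0.0616, 0.0521 and 0.0887. The 8 that fell encode mostly secreted factors: the neutrophil chemokines Cxcl1, Cxcl2 and Cxcl5, the monocyte chemokines Ccl2 and Ccl7, the cytokine Il6, the acute phase protein Saa3 and the metalloreductase Steap4. Cxcl1 stood at 575, 858 and 400.3 CPM in CD34- and at 1285, 2274 and 1469 CPM in CD34+ CAFs, with no overlap and within-tumor log2 ratios of -1.16, -1.41 and -1.88. Steap4 stood at 107, 62.7 and 106 against 233, 314 and 330.4 CPM, also without overlap, with a log2 fold change of -1.69 (adjusted p = 0.0578) without and -1.70 (adjusted p = 0.00172) with the block. With the block Cxcl2 fell by 1.66 (adjusted p = 0.00186) and Ccl7 by 1.10 (adjusted p = 0.00397) on the log2 scale. Cxcl5 fell by 1.78 (adjusted p = 0.00573), but its groups overlapped because tumor 2 was high in both fractions, at 31.0 and 104 CPM. Il6 stood at 346, 429 and 129 CPM in CD34- and at 507, 771 and 386 CPM in CD34+ CAFs. Saa3 had a log2 fold change of -2.54 with the block (adjusted p = 0.00674), though it was nearly level in tumor 1, at 5.93 and 7.55 CPM.

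The targets did not fall as a whole. Mmp13, a collagenase, rose by 1.15 on the log2 scale with the block (adjusted p = 0.0255), at 110.0, 73.9 and 53.3 against 29.0, 52.0 and 17.3 CPM. Gadd45b, named after its values were seen as was Ccl2, rose by 0.49 (adjusted p = 0.0357). The other 18 tested targets did not pass, among them Icam1, at 328 to 705 CPM in CD34- and 299 to 554 CPM in CD34+ CAFs. The median log2 fold change of the list was -0.29.

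Immediate early genes are known to be induced when tissue is dissociated, and 18 of them were read in the same libraries. They summed to 24641 to 36999 CPM in CD34- and 21319 to 32693 CPM in CD34+ CAFs. Of the 18, 11 were higher and 4 lower in CD34- CAFs in every tumor, against 22.8% and 23.4% of all tested genes. Their median log2 fold change with the block was 0.35, against -0.01 over all tested genes. Fos stood at 5590.0, 3838 and 5044 CPM against 5234, 3750.0 and 5251 CPM, and Dusp1 at 1454 to 2009 against 1378 to 1776 CPM, with overlap in both (adjusted p with the block 0.939 and 0.894). Without the block 0 of the 18 passed (background 0.121%), and 4 had an unadjusted p under 0.05 (background 14.3%). Also without the block, edgeR called 0 (background 0.0606%) and DESeq2 3 (background 4.7%). With the block 7 passed, against 8.57% of all tested genes, and edgeR with the block called only Myc, Hspa1a and Hspa1b (background 3.87%). Jund rose by 0.71, Egr2 by 0.52 and Ier2 by 0.49 on the log2 scale, and Atf3 fell by 0.62 and Myc by 0.94. The largest were the heat shock genes Hspa1a and Hspa1b, near-identical copies whose reads may be shared, which rose by 1.30 and 1.35 (adjusted p = 0.00164 and 0.00319). The part of this response in the levels of the 10 genes was not tested.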

How the data were processed

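Bulk RNA of 6 libraries (CD34- and CD34+ CAFs of 3 tumors) was sequenced from TruSeq RNA libraries. The authors aligned reads to GRCm38 and used featureCounts to count them for each NCBI gene; the deposited values are raw counts, with replicates kept apart. Use of strand and treatment of reads with several matches were not stated. Groups and tumors came from the sample titles. Genes were filtered with filterByExpr (minimum count 10), scaled by TMM, and tested with voom and limma, two-sided, with Benjamini-Hochberg adjustment over 14855 genes (R 4.3.3, edgeR 4.0.16, limma 3.58.1, DESeq2 1.42.0). The study's methods name voom and linear models and do not say whether the tumor was a term. The main fit has none, and called 18 genes in both directions together. The paper reports more genes than that as raised in CD34- CAFs, so the main fit does not reproduce its calls. The blocked fit called 642 genes as higher. Libraries with the same number are pairs, having been sorted from the same tumor; deviations from the group means correlated at 0.373, 0.350 and 0.219 within tumors 1, 2 and 3, and the blocked value stands beside a result whose call it changes. RPKM used the length column of the table. Positions and promoters are RefSeq's (GRCm38.p6), exon overlaps GENCODE's.

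The 10 genes and all lists were chosen with earlier results of these data known, the lists from general knowledge. The rule for naming list genes was a blocked adjusted p under 0.05, up to 8 a list by size of change, and 10 fixed ligands and partners. Pathway and immediate early genes outside this rule were Il18, Il1rl2, Il18r1, Il18rap, the IL36 ligands, Irak2, Ikbkg, Ccl2, Gadd45b, Icam1, Fos and Dusp1. Patterns were compared over genes whose log2 CPM averaged 3 or more. Alternatives were edgeR, DESeq2, RLE scaling, no filter, sample quality weights, a threshold of 0.1, and leaving out each library or tumor. The fits were tested on simulated counts.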

Additional observations from a re-analysis of the deposited data

How the results depend on the processing

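The 10 genes had 375 counts or more in every library, whereas Il1a, Il1b, Il18r1 and Il1r2 rest on few counts in some or all libraries, and each group had 3 tumors. Without the tumor as a block, 0 of the 10 genes passed in limma-voom (background 0.121%), and 0 when any single library was left out. With the tumor as a block 2 passed (background 8.57%), and with quality weights and the block 5 (background 19.5%). With RLE scaling and the block 3 passed, where 1255 of all genes did. Without the filter and with the block 2 passed, where 802 of all genes did. DESeq2 called 1 without (background 4.7%) and 3 with the block (background 11.7%), and edgeR 1 with it (background 3.87%). Leaving out a tumor in the blocked fit gave 1 to 4, against 5.82% to 13% of all genes tested.

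Over all tested genes the count of 18 became 1273 with the block, 1255 with RLE scaling and the block, 802 without the filter and with the block, 161 with quality weights, 2904 with weights and the block, 218 at a threshold of 0.1, 9 in edgeR (575 with the block) and 698 in DESeq2 (1733 with the block). It was 0 to 34 without single libraries, and 1134, 851 and 2019 in the blocked fit without tumors 1, 2 and 3. For the 4 pathway lists the count of 0 became 14 with the block, 14 with RLE scaling and the block, 11 without the filter and with the block, 1 with weights, 33 with weights and the block, 1 at a threshold of 0.1, 8 in edgeR with the block, 6 in DESeq2 and 18 in DESeq2 with the block. It was 0 to 1 without single libraries and 13 to 21 without single tumors in the blocked fit.

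Of 200 recomputed log2 fold changes of the 10 genes, 155 kept their direction and side of the threshold, 25 newly passed and 20 changed sign. All sign changes were in genes with a small log2 fold change in the main fit, 0.13 for Il33, 0.18 for Tnfrsf1a and 0.01 for Tnfaip3. The refits of Il33 moved far from 0 in both directions. Il33 was at -0.12 with weights, -0.13 with weights and the block, -0.45 to 0.78 when single libraries were left out (-0.45 without the CD34- library of tumor 3, -0.31 without the CD34+ library of tumor 1) and -0.26 in the blocked fit without tumor 3. Tnfrsf1a was at -0.035 in the blocked fit without tumor 1. Tnfaip3 was at -0.023 with the block, -0.031 in edgeR (-0.023 with the block), -0.043 in DESeq2 (-0.035 with the block), -0.0053 with RLE scaling (-0.035 with the block), -0.0054 without the filter (-0.014 with the block), -0.17 to 0.17 without single libraries, and -0.12 and -0.0090 in the blocked fit without tumors 1 and 2. The cause of these changes was not tested.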
